A study of Homo sapiens with 6 samples.

Results

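Replication-dependent histone genes were taken as the rows of a gene expression table whose symbols begin with HIST1H, HIST2H or HIST3H, which gave 66 of its 20494 genes. The table holds 6 RNA-seq libraries of PA-1, a human ovarian teratocarcinoma line, 1 library for each condition. In 5 of them the cells had received 8 µg of plasmid for 48 h: the empty pcDNA3.1 vector (Vector), or a plasmid for RIPK1, RIPK2, RIPK3 or RIPK4, the receptor-interacting protein kinases. The sixth came from cells given 200 ng of the signalling ligand Wnt3a for 16 h, and the labels do not say whether those cells also took plasmid, so ligand, plasmid and time cannot be told apart there. No condition had a second library, so no difference between conditions could be tested, and every value describes these 6 libraries.

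The nucleosome is an octamer of histones H2A, H2B, H3 and H4 with DNA wound around it, and H1 binds the linker DNA between nucleosomes. The replication-dependent genes lie in clusters and supply most of this protein while DNA is copied. Their typical mRNA ends not in a poly(A) tail but in a conserved stem-loop, which is bound by SLBP and formed with the help of the U7 snRNP proteins LSM10 and LSM11. Transcription is driven by NPAT at histone locus bodies. Some of the genes also make longer polyadenylated transcripts that run past the stem-loop, especially in cells that have stopped dividing. The labels name total RNA and standard Illumina preparation and do not say whether polyadenylated RNA was selected, and the part of such a step in these levels was not tested.

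The stem-loop could be read in the GENCODE 29 transcripts of 25 of the 66 genes, searched as a 6-base stem that opens with GG around a 4-base loop that opens with TT, on the transcript strand. It is shown for 6 genes on which the results turn, with 5 transcript bases on each side and the 16 bases of the stem-loop in capitals:
HIST1H2AC: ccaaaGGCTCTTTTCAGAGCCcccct
HIST2H2BE: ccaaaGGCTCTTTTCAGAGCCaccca
HIST1H2BH: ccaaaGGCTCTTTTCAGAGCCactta
HIST1H2BD: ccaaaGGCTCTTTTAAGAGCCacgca
HIST1H4E: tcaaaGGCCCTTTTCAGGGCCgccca
HIST1H4H: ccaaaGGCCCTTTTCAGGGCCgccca
The H2A and H2B genes shown share one stem and the H4 genes another, and HIST1H2BD differs from the other H2B genes in the loop. In 18 genes an annotated transcript runs at least 100 bases past the stem-loop. Examples are HIST1H2AC by 1114 bases in 1 of its transcripts, HIST2H2BE by 1729 and HIST1H2BH by 1640. The polyadenylation signal AATAAA lies in the last 40 bases of a transcript in 18 genes. Most of the other genes are annotated by their coding sequence alone, so the absence of these letters says nothing about their mRNA.

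Histone promoters carry elements that differ between the types. The 300-base RefSeq promoter windows (250 bases before the start and 50 after it, GRCh38.p14) matched 60 of the 66 genes: the HIST1H genes on chromosome 6, and the HIST2H and HIST3H genes on chromosome 1. On both strands, CCAAT was present in 52 of the 60 (86.7%, against 39.7% of all 27305 windows) and TATAAA in 40 (66.7% against 14.0%). The octamer ATTTGCAT, known as an Oct-1 site of H2B promoters, stood in 14 of 18 H2B and 11 of 14 H2A windows but in none of 11 H4 windows, against 2.19% overall. Many H2A and H2B starts lie back to back, so their windows overlap and 1 site can be counted for both genes. GGTCC, a core of the H4 subtype element, stood in 10 of 11 H4 windows against 50.6% overall. The windows of 2 genes are printed. These are the most abundant gene and a gene that shares its upstream region with a little-read neighbour of different point values. Capitals mark these 4 motifs on either strand, and GGTCC overlaps CCAAT where the 2 adjoin.
HIST1H2BK, minus strand, chr6:27146806-27147105: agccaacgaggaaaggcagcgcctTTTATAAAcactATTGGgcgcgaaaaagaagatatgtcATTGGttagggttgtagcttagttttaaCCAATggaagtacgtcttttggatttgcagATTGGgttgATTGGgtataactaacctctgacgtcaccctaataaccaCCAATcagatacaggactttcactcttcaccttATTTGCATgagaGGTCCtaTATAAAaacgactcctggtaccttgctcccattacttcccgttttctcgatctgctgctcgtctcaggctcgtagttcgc
HIST2H2BE, minus strand, chr1:149886633-149886932: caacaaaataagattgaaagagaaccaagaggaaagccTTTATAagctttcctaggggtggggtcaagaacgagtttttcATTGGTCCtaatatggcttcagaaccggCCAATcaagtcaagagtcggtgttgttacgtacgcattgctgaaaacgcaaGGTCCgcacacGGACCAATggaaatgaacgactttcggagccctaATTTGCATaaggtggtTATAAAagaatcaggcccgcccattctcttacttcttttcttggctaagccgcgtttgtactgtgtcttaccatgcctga
Both windows hold all 4 motifs, with the octamer just upstream of a TATAAA.

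Few histone genes were well read. Levels are in RPKM (reads of a gene divided by its length in kilobases and scaled to a library of 1000000 reads), as the authors deposited them, and whole reads were recovered from these values. Of the 66 genes, 12 were listed at 0 in every library and 18 averaged 1 RPKM or more over the 6 libraries, compared with 11881 of the 20494 genes of the table. The 18 were 9 of 19 H2B genes, 5 of 15 H2A, 2 of 13 H4, 1 of 13 H3 and 1 of 6 H1. The recovered libraries held 17248973 (Vector) to 19512234 reads (RIPK1), of which the 66 genes took between 1566 (RIPK2) and 2433 (Vector). H2B genes alone made up 56.4% to 63.9% of the summed RPKM of the set. H4 and H3, which the nucleosome holds in equal number with H2A and H2B, made up 3.16% to 7.22% and 2.20% to 3.38%.

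Shared sequence limits single genes. Reads of a gene whose 50-base windows also occur in another gene cannot be placed by sequence alone, and the authors' counting rule is not given in the sources used here. All windows of HIST2H2AA3, HIST2H3C, HIST1H2AK, HIST1H4K and HIST1H3D were shared with another GENCODE gene, while 30 of the 66 shared none. Of the 12 genes at 0, 9 shared no window and 3 shared at least 50%.

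HIST1H2BK, an H2B gene known for polyadenylated transcripts, had the highest level of the set. It stood at 62.1 RPKM in Vector, 41.6 in Wnt3a, 35.8 in RIPK1, 28.8 in RIPK2, 37.4 in RIPK3 and 51.1 in RIPK4, and gave 28.0% to 36.1% of all reads of the set. Vector was highest and RIPK2 lowest. Its level was 2.16-fold lower in RIPK2 than in Vector (95% exact binomial interval 1.92 to 2.42), and 1.73-fold (1.56 to 1.93), 1.66-fold (1.49 to 1.84), 1.49-fold (1.35 to 1.65) and 1.21-fold lower (1.10 to 1.34) in RIPK1, RIPK3, Wnt3a and RIPK4. These and all later intervals cover counting error only, not the variation between cultures. Except in RIPK1, differences from Vector also followed transcript GC content across all genes. With that GC trend removed, the HIST1H2BK differences on log2(RPKM + 1) moved from -0.57 to -0.94 in Wnt3a, from -1.08 to -1.42 in RIPK2, from -0.71 to -0.96 in RIPK3 and from -0.28 to -0.61 in RIPK4. The GC used for this gene was that of its annotated coding sequence alone, so these values are rough. Of the windows in its annotated coding sequence 74.1% occur in other genes, so part of its reads could belong to other H2B copies.

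HIST1H1C, which encodes linker histone H1.2, was the only H1 gene to average over 1 RPKM. It stood at 23.3 RPKM in Vector, 15.1 in Wnt3a, 14.2 in RIPK1, 13.2 in RIPK2, 16.3 in RIPK3 and 25.4 in RIPK4. The Vector and RIPK4 libraries were the high ones, and the other 4 lay close together below them. Against Vector it was 1.77-fold lower in RIPK2 (interval 1.47 to 2.14), while the RIPK4 level was 1.09 times that of Vector, with an interval that included 1 (0.929 to 1.28). With the GC trend removed the RIPK4 difference on log2(RPKM + 1) turned from 0.12 to -0.14, and that of Wnt3a moved from -0.59 to -0.90. In RIPK4 it was 1.68 times its level in Wnt3a (1.41 to 2.0), and no window of it is shared with another gene. HIST1H1B, HIST1H1E and HIST1H1D, the next H1 genes, had means of 0.292, 0.237 and 0.140 RPKM, on 6 reads or fewer in any library.

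Among H2A genes, HIST3H2A and HIST1H2AC had the highest mean levels and ordered the libraries differently. HIST1H2AC read 10.2 RPKM in Vector, 6.61 in Wnt3a, 6.97 in RIPK1, 5.10 in RIPK2, 6.11 in RIPK3 and 8.06 in RIPK4. HIST3H2A, of the small cluster on chromosome 1, read 4.92, 8.83, 7.56, 7.44, 5.08 and 10.3 RPKM in the same order. Vector was thus the highest library for HIST1H2AC and the lowest for HIST3H2A. HIST1H2AC was 2.0-fold lower in RIPK2 than in Vector (1.65 to 2.43), whereas HIST3H2A was 1.51 times as high there (1.02 to 2.27) and 2.08 times as high in RIPK4 (1.43 to 3.08). HIST2H2AC was at 1.99 RPKM in Vector and 2.62 to 3.29 in the other libraries, and HIST1H2AG at 2.45 in Vector and 1.37 to 1.98 elsewhere. On 15 to 28 and 13 to 21 reads, the ratios of HIST2H2AC and HIST1H2AG to Vector had intervals that included 1.

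The H2B genes gave the clearest contrast between members. HIST1H2BD stood at 15.8 RPKM in Vector, 14.5 in Wnt3a, 13.3 in RIPK1, 6.97 in RIPK2, 9.68 in RIPK3 and 10.9 in RIPK4. HIST1H2BH, of similar mean level, stood at 11.2, 18.1, 10.3, 10.3, 9.52 and 12.5 RPKM in that order. RIPK2 was by far the lowest library for HIST1H2BD, while HIST1H2BH was high in Wnt3a and near its Vector level elsewhere. HIST1H2BD was 2.27-fold lower in RIPK2 than in Vector (1.82 to 2.85) and 1.64-fold lower in RIPK3 (1.34 to 2.01). HIST1H2BH was 1.09-fold lower in RIPK2, with an interval that included 1 (0.795 to 1.5), and 1.61 times its Vector level in Wnt3a (1.22 to 2.14). HIST1H2BG, at 3.22 to 4.41 RPKM, had no ratio to Vector whose interval left out 1.

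H3 and H4 genes were near the limit of reading. HIST1H3D, the only H3 gene to average over 1 RPKM, stood at 1.68 RPKM in Vector, 1.25 in Wnt3a, 0.891 in RIPK1, 1.26 in RIPK2, 0.789 in RIPK3 and 1.77 in RIPK4, on 13 to 28 reads. All windows of its transcript lie in an overlapping annotated gene too. HIST1H3G, HIST1H3H and HIST1H3J followed with means of 0.559, 0.455 and 0.409 RPKM. HIST1H4H, the best-read H4 gene, lay between 1.82 (RIPK3) and 3.08 RPKM (Wnt3a), and none of its ratios to Vector had an interval that left out 1. HIST1H4E is described with the Wnt3a comparison, and HIST1H4C and HIST1H4I had means of 0.814 and 0.714 RPKM. HIST4H4, a stem-loop H4 gene outside the 66 by its symbol, lay at 0.241 to 0.845 RPKM, highest in Wnt3a.

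**Figure D1:**
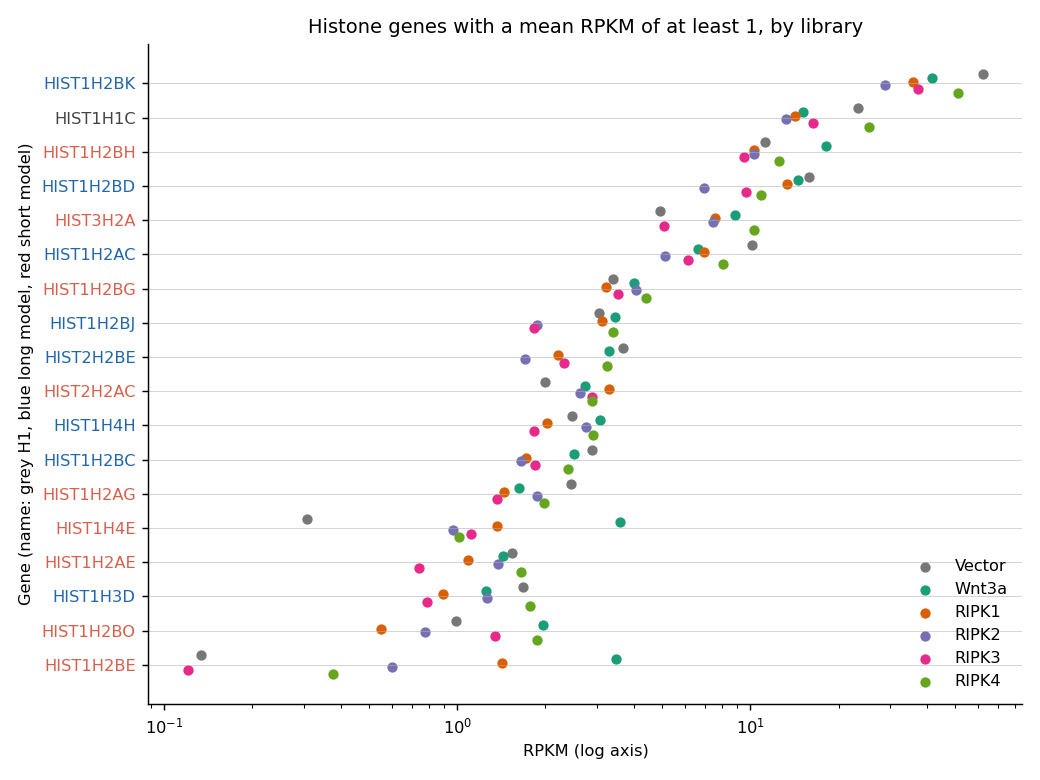
RPKM (log axis) of the 18 histone genes that averaged 1 RPKM or more, 1 point per library, with genes ordered by mean and gene names coloured by class. Vector lies at the right for HIST1H2BK (62.1 RPKM) and at the left for HIST3H2A (4.92 RPKM), and HIST1H4E and HIST1H2BE are set apart by their Wnt3a value.

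Differences were next taken on log2(RPKM + 1), which understates changes of low genes, for the 18 genes above the filter. The 2 genes just above it were HIST1H2BE and HIST1H2BO, with means of 1.02 and 1.25 RPKM, and the 2 just below were HIST1H2AD (0.998) and HIST1H4C (0.814). The 5 comparisons with Vector share that 1 library, so a deviation of Vector enters all of them. In 4 of the comparisons the difference also followed base composition across all genes. Its Spearman correlation with transcript GC was 0.702 in Wnt3a, 0.673 in RIPK2, 0.555 in RIPK3 and 0.681 in RIPK4, but -0.068 in RIPK1. The 18 genes had a median transcript GC of 48.9%, the same as all genes. GC was that of the GENCODE transcript nearest in length to the gene model, which for some histone genes covers other sequence. HIST1H2BK had a model of 820 bases against its only transcript of 381, and HIST1H2BH 424 against 2060. Values of histone genes with the GC trend removed are therefore rough. The part of composition in each result was not tested beyond those values.

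With Wnt3a, 2 histone genes were at least 2-fold higher than in Vector and none was at least 2-fold lower, against 0.673% and 1.43% of all genes above the filter. HIST1H2BE stood at 0.134 RPKM in Vector (1 read), 3.48 in Wnt3a (28 reads), 1.42 in RIPK1 (12 reads), 0.597 in RIPK2, 0.121 in RIPK3 and 0.377 in RIPK4. HIST1H4E stood at 0.308 RPKM in Vector (2 reads), 3.59 in Wnt3a (25 reads), 1.36 in RIPK1, 0.965 in RIPK2, 1.11 in RIPK3 and 1.02 in RIPK4. Wnt3a was the highest library for both. The Wnt3a to Vector ratio was 26.1 for HIST1H2BE (4.31 to 1066) and 11.6 for HIST1H4E (2.90 to 101). Both passed the filter only through the Wnt3a library: their mean over the other 5 was 0.529 and 0.953 RPKM, so nothing is read from the count. The median difference of the 18 genes was 0.04, as over all genes (0.04), and -0.10 with the GC trend removed. The H4 reads summed to 116 in Wnt3a and 62 in Vector, 1.74 times the rate (1.27 to 2.41), or 1.41 times (1.01 to 1.99) without HIST1H4E, while the H1 reads were 1.48-fold lower (1.24 to 1.77).

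With RIPK1, HIST1H2BE was the 1 histone gene at least 2-fold higher and none was at least 2-fold lower, against 0.295% and 0.547% of all genes. That gene passed the filter only through its Wnt3a value and had 12 reads in RIPK1 against 1 in Vector. Nothing is therefore read from the count. The median difference of the 18 genes was -0.26, against 0.01 over all genes. Of the 11880 genes above the filter 5679 lay below 0, and of the 18 histone genes 13. The 5 above 0 were 2 H2A genes, 2 H2B genes and HIST1H4E. HIST1H2BE is among these H2B genes, and like HIST1H4E it entered through its Wnt3a value. Without HIST1H2BE and HIST1H4E the median was -0.32. By type, the summed reads were 1.46-fold lower for H2B (1.35 to 1.57), 1.24-fold lower for H2A (1.07 to 1.42), 1.59-fold lower for H1 (1.33 to 1.90) and 1.81-fold lower for H3 (1.27 to 2.61). The H3 sum fell from 85 reads in Vector to 53, through HIST1H3H (30 to 13), HIST1H3E (20 to 9) and HIST1H3D (25 to 15), and not across the type. The H4 sum was 0.984 times that of Vector (0.688 to 1.41). RIPK1 is the library whose differences from Vector hardly followed GC.

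With RIPK2, HIST1H2BK and HIST1H2BD were at least 2-fold lower, at -1.08 each on log2(RPKM + 1), and none was at least 2-fold higher, against 0.699% and 1.59% of all genes. The median of the 18 was -0.21 against -0.01 over all genes, and 12 lay below 0, against 6042 of 11880 genes above the filter. Summed over the 66 genes, RPM (reads, likewise scaled to 1000000 but not divided by length) was 1.74-fold lower than in Vector (1.63 to 1.85), the lowest of any library. H2B reads were 1.91-fold lower (1.76 to 2.07) and H3 reads 2.32-fold lower (1.58 to 3.45), while H4 reads were 1.23 times those of Vector with an interval that included 1 (0.873 to 1.73). The H3 sum fell from 85 reads in Vector to 41, largely through HIST1H3H (30 to 8) and HIST1H3E (20 to 6), both under the filter. HIST1H3D was at 0.751 times its Vector level (0.400 to 1.40), so the H3 sum does not describe the whole type. HIST1H2BK alone did not set the sum, which without it was 1.57-fold lower (1.45 to 1.69).

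With RIPK3, no histone gene was 2-fold apart in either direction, against 1.47% of all genes higher and 0.581% lower. Of the 18, 13 lay below 0, against 5673 of 11880 genes above the filter. The median of the 18 was -0.47, against 0.02 over all genes. The summed RPM of all 66 genes was 1.5-fold lower than in Vector (1.41 to 1.60). With RIPK4, again none was 2-fold apart, against 0.396% higher and 0.387% lower. There 12 of the 18 lay above 0, as did 6608 of the 11880 genes above the filter. The median of the 18 was 0.12 against 0.05 over all genes, and the 66 genes together were 1.08-fold lower (1.02 to 1.14). Compared with Wnt3a directly, HIST1H2BE and HIST1H4E were at least 2-fold lower in RIPK4 and no gene was at least 2-fold higher, against 0.143% and 0.295% of all genes. Both are above the filter through their Wnt3a value alone, so a lower level in another library follows from the filter and nothing is read from that count. The median of that comparison was 0.02, as over all genes (0.02).

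The genes within a type did not move as a block, and the length of the gene model in the table, recovered with the reads, separated many of them. A stem-loop histone mRNA is short, and a model longer than 700 bases holds added sequence, whose position was not read from the values. This cut was chosen after the values were seen and is a description only. Of the core histone genes with reads, 14 had a model over 700 bases and 34 a shorter one, and 8 and 9 of these were above the filter. The long group was HIST1H2BK (820 bases), HIST1H2BD (893), HIST1H2AC (1699), HIST1H2BJ (2098), HIST2H2BE (2221), HIST1H4H (1034), HIST1H2BC (1190) and HIST1H3D (863). The short group was HIST1H2BH (424 bases), HIST3H2A, HIST1H2BG, HIST2H2AC, HIST1H2AG, HIST1H4E, HIST1H2AE, HIST1H2BO and HIST1H2BE, none above 564 bases. HIST1H3D has a second promoter window, the same as that of HIST1H2AD, so its added bases need not lie past the stem-loop. HIST1H1C, at 731 bases, is an H1 gene and was placed in neither group. Its differences from Vector were -0.59 in Wnt3a, -0.67 in RIPK1, -0.78 in RIPK2, -0.49 in RIPK3 and 0.12 in RIPK4. A per-gene value does not separate reads of the coding part from reads past the stem-loop. Model length is also a property of the annotation. In GENCODE 29 a transcript runs past the stem-loop by 1640 bases in HIST1H2BH, 1059 in HIST1H2BG and 1022 in HIST1H4E. It does so by 430 bases in HIST1H2BE and 390 in HIST3H2A, all of the short group. In the long group HIST1H2AC, HIST2H2BE, HIST1H4H and HIST1H2BC have such a transcript of at least 100 bases past it, but HIST1H2BK and HIST1H3D do not. That annotation thus does not separate the groups.

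The long-model genes were lower in RIPK1, RIPK2 and RIPK3 than in Vector. In RIPK1, 7 of the 8 lay below 0, with a median difference of -0.50, against -0.05 for the 9 short-model genes. In RIPK2 it was 7 of 8, with medians of -0.67 and 0.21, and in RIPK3 8 of 8, with medians of -0.55 and 0.04. Over the 11880 genes above the filter, 5679 lay below 0 in RIPK1, 6042 in RIPK2 and 5673 in RIPK3. In Wnt3a the long-model median was -0.14 and the short-model median 0.57, and in RIPK4 they were -0.17 and 0.30. Without HIST1H2BE and HIST1H4E, the genes that passed the filter through Wnt3a, the short-model median was 0.31 in Wnt3a, -0.12 in RIPK1, -0.10 in RIPK2, 0.04 in RIPK3 and 0.30 in RIPK4, so its sign in RIPK2 rests on them. All of these comparisons use the same Vector library. With the GC trend removed the long-model medians were -0.14 (Wnt3a), -0.48 (RIPK1), -0.61 (RIPK2), -0.52 (RIPK3) and -0.17 (RIPK4), and the short-model medians 0.23, -0.09, 0.15, -0.05 and 0.23.

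**Figure D2:**
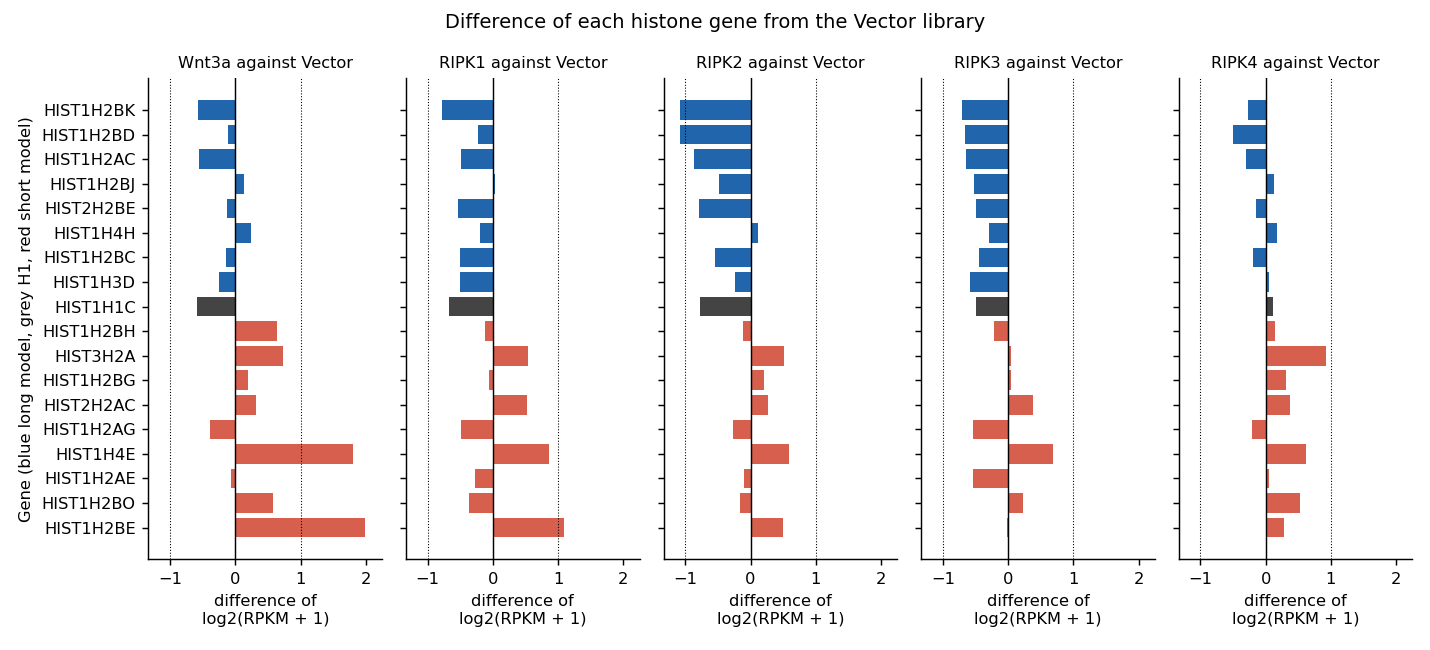
Difference of log2(RPKM + 1) from Vector for each of the 18 genes, 1 panel per library, with blue bars for long-model core histones, grey for HIST1H1C and red for short-model core histones; dotted lines mark 2-fold. All 8 blue bars point left in RIPK3 and 7 of 8 in RIPK1 and RIPK2, while the red bars point both ways, with HIST1H2BE and HIST1H4E past the line in Wnt3a.

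Counting intervals were set beside the same intervals over all genes with as many reads, a mean of 20.3 to 649, since with 1 library a condition such intervals leave out 1 for many genes. The interval of the ratio to Vector lay wholly below 1 for 4 of the 8 long-model genes in RIPK1, 6 in RIPK2, 7 in RIPK3, 2 in Wnt3a and 3 in RIPK4, and wholly above 1 for none. Of all genes in that read range it lay wholly below 1 for 17.7% in RIPK1, 29.6% in RIPK2, 24.6% in RIPK3, 26.3% in Wnt3a and 21.3% in RIPK4, and wholly above 1 for 13.7%, 31.0%, 27.8%, 34.7% and 33.0% in the same order. Over all genes above the filter with recovered reads, at any depth, the shares wholly below 1 were 19.5%, 36.2%, 29.5%, 33.2% and 28.1% in that order. The length cut was chosen after these differences were seen, and all counts share the 1 Vector library. The long-model counts thus describe these genes, and no excess over the shares is read from them in any library. For the 9 short-model genes it lay wholly above 1 for 4 in Wnt3a, 2 in RIPK1, 1 in RIPK2, none in RIPK3 and 1 in RIPK4, and wholly below 1 for none. Over all genes above the filter with recovered reads the shares wholly above 1 were 38.6% in Wnt3a, 24.3% in RIPK1, 34.3% in RIPK2, 33.7% in RIPK3 and 37.7% in RIPK4. The short-model counts include HIST1H2BE and HIST1H4E, which entered through their Wnt3a value; without them 2 of 7 remained in Wnt3a and 1 of 7 in RIPK1, and nothing is read from the short-model counts. Vector was the highest library for 5 of the 8 long-model genes, and the lowest was RIPK2 for 5 and RIPK3 for 3. Of the 11881 genes above the filter Vector was highest for 2292, and the lowest was RIPK2 for 2630 and RIPK3 for 836.

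Sums were also taken over all core histone genes with reads, including those under the filter. They rest largely on the reads of the same genes and on the same cut, so their likeness to the medians is not further support. Long models took 108 RPM in Vector (exact Poisson interval 103 to 113), 83.0 in Wnt3a, 71.0 in RIPK1, 53.0 in RIPK2 (49.8 to 56.4), 65.2 in RIPK3 and 89.5 in RIPK4. Short models took 15.9 RPM in Vector (14.1 to 17.9), 27.1 in Wnt3a (24.8 to 29.6), 17.3 in RIPK1, 18.1 in RIPK2, 15.9 in RIPK3 and 21.8 in RIPK4. The long sum was highest in Vector and lowest in RIPK2, and the short sum was highest in Wnt3a. Against Vector the long sum was 2.03-fold lower in RIPK2 (1.88 to 2.19), 1.65-fold in RIPK3 (1.54 to 1.77) and 1.52-fold in RIPK1 (1.41 to 1.63). The short sum was 1.70 times that of Vector in Wnt3a (1.46 to 1.98), or 1.54 times without HIST1H2BE and HIST1H4E (1.32 to 1.79), and 1.37 times in RIPK4 (1.17 to 1.60). Without HIST1H2BK the long sum was 1.93-fold lower in RIPK2 (1.74 to 2.14), and without HIST1H2BH the short sum was 1.74 times as high in Wnt3a (1.45 to 2.08). Within H2B alone the RIPK2 ratios were 2.10-fold lower for long models (1.93 to 2.30) and 1.11 times for short ones (0.867 to 1.42).

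**Figure D3:**
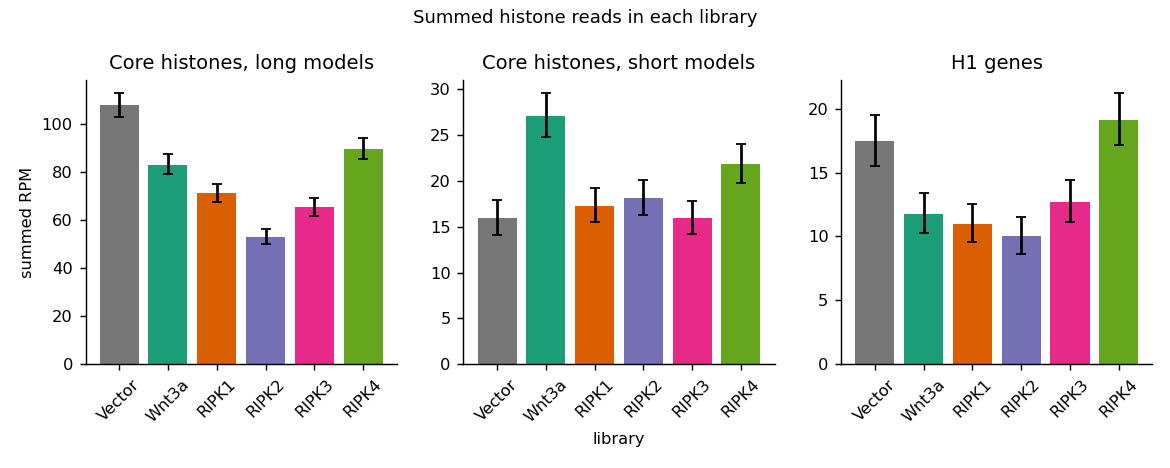
Summed RPM of core histone genes with long models, core histone genes with short models and H1 genes in each library; bars show the sum and lines its 95% exact Poisson interval, counting error only. The long-model sum runs from 53.0 (RIPK2) to 108 (Vector), and the short-model sum from 15.9 to 27.1 (Wnt3a).

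Divergent gene pairs did not give 1 pattern. In 11 pairs the 2 starts lie back to back within 250 bases in GRCh38.p14, so that 1 stretch serves as promoter for both. HIST1H2BF is counted with both HIST1H2AD and HIST1H3D, which have the same window there, so those pairs are 1 stretch. Of the pairs with both genes above the filter, 2 join a long and a short model. HIST2H2BE (long model, its promoter window printed above) and HIST2H2AC (short model) have starts 236 bases apart. HIST2H2BE read 3.68 RPKM in Vector, 3.28 in Wnt3a, 2.22 in RIPK1, 1.70 in RIPK2, 2.31 in RIPK3 and 3.24 in RIPK4, whereas HIST2H2AC was lowest in Vector, as given above. The HIST2H2BE level was 2.16-fold lower in RIPK2 than in Vector (1.62 to 2.91). That of HIST2H2AC was 1.31 times the Vector level, and its 15 and 22 reads left an interval of 0.650 to 2.72, so the pair differs in point value and the H2A partner is imprecise. Of the windows of HIST2H2AC 30.5% also occur in other genes. In the other such pair, HIST1H2BJ (long model) and HIST1H2AG (short model), with starts 248 bases apart, the short-model gene had the lower ratio to Vector in Wnt3a, RIPK1 and RIPK4: 0.665 (0.319 to 1.35), 0.589 (0.277 to 1.22) and 0.807 (0.405 to 1.59). HIST1H2BJ had ratios of 1.13, 1.03 and 1.12 there. Both genes had ratios below 1 in RIPK2 (0.618 for HIST1H2BJ and 0.766 for HIST1H2AG) and in RIPK3 (0.60 and 0.559). HIST1H2AG rested on 13 to 21 reads a library, and each of its 5 intervals held 1. HIST1H2BC and HIST1H2AC, both with long models and starts 246 bases apart, were lower together in RIPK2, by 1.74-fold (1.14 to 2.68) and 2.0-fold (1.65 to 2.43).

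Genes that act on histones were compared next, from lists chosen with earlier results known. Of the 12 variant histones, many of which are expressed throughout the cell cycle from polyadenylated mRNA, 11 were above the filter. Their medians were 0.17 in Wnt3a, 0.04 in RIPK1, -0.12 in RIPK2, -0.07 in RIPK3 and 0.15 in RIPK4. Over all genes the medians were 0.04, 0.01, -0.01, 0.02 and 0.05 in the same order. H1F0, linker histone H1.0, read 305 RPKM in Vector, 295 in Wnt3a, 275 in RIPK1, 205 in RIPK2, 241 in RIPK3 and 315 in RIPK4, lowest in RIPK2 like HIST1H1C. H2AFZ lay at 181 (Vector) to 224 RPKM (RIPK1), H2AFX at 99.9 (RIPK1) to 139 (RIPK4) and H3F3B at 153 (Wnt3a) to 184 (RIPK3). H3F3C was the only list member at least 2-fold apart, higher in Wnt3a, RIPK1, RIPK2 and RIPK3. It stood at 0.824 RPKM in Vector and 2.28 (RIPK4) to 5.75 (RIPK2) elsewhere. Of all genes 0.673%, 0.295%, 1.59% and 1.47% were at least 2-fold higher in those libraries, and nothing is read from 1 gene. H3F3C is an intronless near copy of H3F3 genes, and H3F3A, an abundant gene in most cells, is listed at only 0.504 to 1.18 RPKM, so the placement of reads among these copies is uncertain.

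All 21 genes for making and processing histone mRNA were above the filter, and none was 2-fold apart from Vector in any library. Of all genes at most 1.59% were higher (RIPK2) and 1.43% lower (Wnt3a) by that measure, so nothing is read from that. The medians of the 21 genes were -0.08 in Wnt3a, 0.01 in RIPK1, -0.15 in RIPK2, -0.09 in RIPK3 and -0.10 in RIPK4. SLBP, the stem-loop binding protein, read 53.1 RPKM in Vector, 52.0 in Wnt3a, 54.1 in RIPK1, 40.8 in RIPK2, 45.6 in RIPK3 and 48.2 in RIPK4. NPAT was highest in Vector (6.54) and lowest in Wnt3a (3.93), and CASP8AP2 (FLASH), its partner in histone locus bodies, lay between 7.5 (Wnt3a) and 11.3 RPKM (RIPK1). LSM10 read 30.1 (RIPK1) to 41.4 RPKM (Wnt3a) and LSM11 2.40 (RIPK2) to 3.0 (RIPK1). CCNE2, a cyclin of the transition into DNA synthesis, was the lowest of the list in each comparison with Vector, at 4.24 RPKM in Vector and 1.65 (Wnt3a) to 3.0 (RIPK1) elsewhere. The highest was SYMPK, a scaffold of the cleavage complex, in Wnt3a (0.56) and RIPK2 (0.40), POU2F1, which encodes Oct-1, in RIPK3 (0.42) and RIPK4 (0.70), and CPSF2 in RIPK1 (0.13).

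None of the 20 histone chaperones or 31 DNA synthesis genes, all above the filter, was 2-fold apart from Vector. Few genes of any kind were, at most 1.59% higher (RIPK2) and 1.43% lower (Wnt3a), so nothing is read from that. In RIPK2, 14 of 20 chaperones and 22 of 31 DNA synthesis genes lay below 0, with medians of -0.18 and -0.19, and in RIPK3 13 and 21, with medians of -0.15 and -0.15. Over the 11880 genes above the filter, 6042 lay below 0 in RIPK2 and 5673 in RIPK3, with medians of -0.01 and 0.02. In RIPK1 the chaperone and DNA synthesis medians were 0.02 and 0.04, with all genes at 0.01 and the long-model histones at -0.50. ASF1A, a chaperone that hands H3 and H4 to assembly factors, was the lowest chaperone in Wnt3a (-0.93), RIPK1 (-0.40) and RIPK4 (-0.60), and NAP1L1, an H2A and H2B chaperone, in RIPK2 (-0.83) and RIPK3 (-0.60). CABIN1 was the highest in all of these except RIPK1, where ATRX was (0.44). Among DNA synthesis genes the extremes were RRM2 and E2F1 in Wnt3a (-0.54 and 0.68), RFC3 and RRM1 in RIPK1 (-0.14 and 0.25), RFC3 and MCM5 in RIPK2 (-0.55 and 0.50), and RRM2 and CDT1 in RIPK4 (-0.37 and 0.65). In RIPK3 the highest was MCM7 (0.34).

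**Figure D4:**
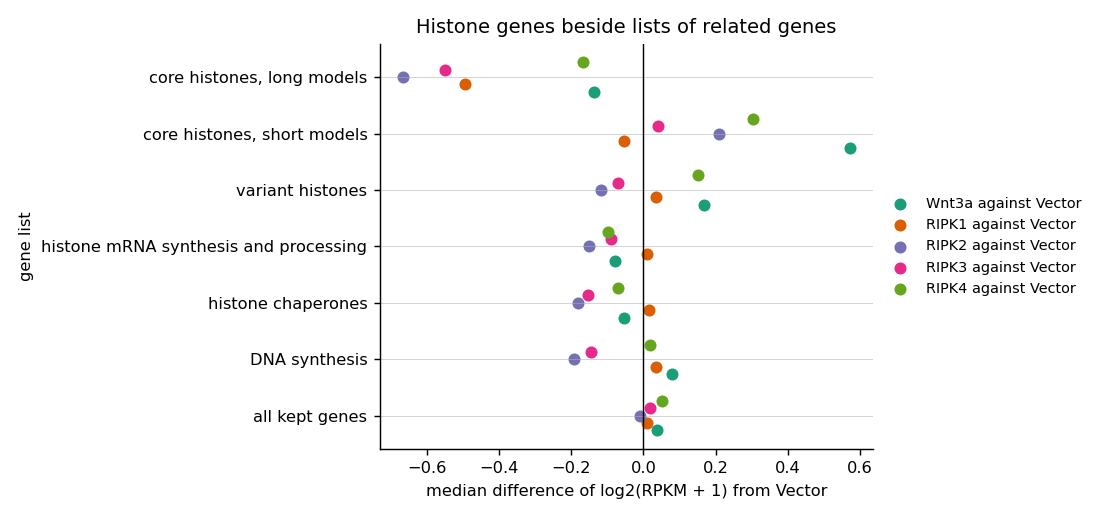
Median difference of log2(RPKM + 1) from Vector for the long-model and short-model histones, 4 lists of related genes and all kept genes, 1 point per library. The long-model histones lie at -0.67 in RIPK2 and -0.50 in RIPK1, where DNA synthesis genes lie at -0.19 and 0.04.

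The libraries carried PA-1 markers, with LIN28A at 213 (RIPK2) to 392 RPKM (RIPK1) and SOX2 at 48.1 (Wnt3a) to 149 (Vector), although TDGF1 was listed at 0 and NANOG was at most 0.234. Of 7 haematopoietic markers none was above the filter, and the list summed to 0.309 to 0.824 RPKM, with HBB and CD48 at 0. Fibroblast markers summed to 124 (RIPK1) to 256 RPKM (RIPK3), being 145 in Vector and 246 in RIPK2, with 4 of 7 above the filter and DCN at 0. Endothelial markers, 5 of 6 above the filter, summed to 54.6 in Vector, 67.4 in RIPK2 and 73.2 in RIPK3. These 2 lists were thus high in the libraries where long-model histones were lowest, and the fibroblast list was lowest in RIPK1, where those histones were also lower; their part in the result was not tested. In bulk RNA, fewer cells in DNA synthesis and less histone RNA per cell cannot be told apart.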

How the data were processed

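The deposited table gives RPKM for 20494 genes in 6 libraries of PA-1 cells, 1 per condition, as the authors made it; per the submitters' processing notes GSNAP, DESeq and hg19 were used, without roles or versions. The sources used here do not give the annotation, the counting rule or any selection of polyadenylated RNA. Because deposited values keep 5 digits, each gene's whole reads, model length and the library totals (17248973 to 19512234 reads) were solved from them, for 97.7% of the 11881 genes with a mean of at least 1 RPKM. For genes under 50 reads, a length under 70% of the shortest reference length was raised to a multiple of itself. The recovery was tested on simulated data.

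Differences are of log2(RPKM + 1), with 2-fold as the threshold. Ratios carry 95% exact conditional binomial intervals and sums exact Poisson intervals. No test between conditions was made, since each has 1 library. GENCODE 29 transcripts gave length, GC, shared 50-base windows and stem-loops, and RefSeq (GRCh38.p14) gave promoters, matched by Entrez gene identifier. GC was taken from the transcript nearest in length to the gene model. Genes named were the 4 highest of each histone type, all 2-fold genes, the widest ranges, those nearest the filter, a set of histone regulators and variants, and the extremes of each list, of which 1 is not reported here. Members and lists were chosen with earlier results of these data known. Alternatives were the pseudocount, 3 filters, median-ratio scaling, removal of a GC trend (lowess, span 0.3), and 2 exclusions of genes. Python 3.11.15, numpy 2.4.6, scipy 1.17.1, pandas 2.3.3, statsmodels 0.14.6 and matplotlib 3.10.9 were used.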

Additional observations from a re-analysis of the deposited data

How the results depend on the processing

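No paired analysis was possible because each condition had 1 library and the labels carry no replicate numbers. Collapsing genes of identical protein was not run, because no protein table was used here. The median difference of the histone genes changed sign in 10 cases, which fell on reported medians of 0.02 to 0.12 except for RIPK3 without the filter; the cause was not tested. For Wnt3a against Vector the median of 0.04 became -0.34 at a mean RPKM of at least 5, -0.12 at a mean of at least 20 reads, -0.0059 with median-ratio scaling, -0.10 with the GC trend removed and -0.090 without HIST1H2BE and HIST1H4E; it became 0.20 without a filter and 0.16 over genes with under 50% of windows shared. For RIPK4 against Vector the median of 0.12 became -0.079 at RPKM 5 and -0.063 with the GC trend removed. For RIPK4 against Wnt3a the median of 0.02 became -0.047 without a filter, 0.22 at RPKM 5 and -0.013 over genes with under 50% of windows shared. For RIPK1 it moved from -0.26 to -0.37 with pseudocount 0.1, -0.064 without a filter and -0.36 at RPKM 5. For RIPK2 it moved from -0.21 to -0.34 with pseudocount 0.1, -0.031 without a filter, -0.83 at RPKM 5, -0.49 at 20 reads and -0.39 with the GC trend removed. For RIPK3 it moved from -0.47 to -0.56 with pseudocount 0.1, 0.0062 without a filter, -0.57 at RPKM 5 and -0.37 over genes with under 50% of windows shared.

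Counts of genes 2-fold apart were small. The filters at RPKM 5 and at 20 reads, and leaving out HIST1H2BE and HIST1H4E (chosen after seeing the data, as was the limit on shared windows), took away those genes, so the counts fell to 0 for Wnt3a higher, RIPK1 higher and RIPK4 lower than Wnt3a. With pseudocount 0.1 the genes at least 2-fold higher than in Vector numbered 2 in RIPK1, 2 in RIPK2, 1 in RIPK3 and 3 in RIPK4, and 1 was lower in RIPK3. Without a filter 1 was higher in RIPK2, and without genes of 50% or more shared windows 1 was lower there. The long-model median stayed below 0 against Vector under all 8 settings in every library, between -1.08 and -0.12. The filter at 20 reads and the exclusion of HIST1H2BE and HIST1H4E left the long-model genes unchanged, so those settings could not move that median. The short-model median changed sign in RIPK1, RIPK2 and RIPK3, and in Wnt3a it fell from 0.57 to 0.31 without HIST1H2BE and HIST1H4E. For single genes, removing the GC trend moved HIST1H2BK and HIST1H1C, with a turned sign for HIST1H1C in RIPK4 (-0.14). Depth limits H3 and H4: most of these genes had under 20 reads.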
